A study of Mus musculus with 6 samples.

Results

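The transcripts of 10 chemokine genes, Cxcl1, Cxcl2, Cxcl5, Cxcl10, Cxcl12, Cxcl16, Ccl2, Ccl7, Ccl20 and Cx3cl1, were followed in TuBo tumor cells with and without p140Cap. They were taken by gene symbol from the 21960 genes of the counts table, and each symbol named a single gene. TuBo is a mammary tumor cell line from the BALB/c-MMTV-NeuT mouse, which carries an activated rat Her2/neu oncogene driven by the mouse mammary tumor virus promoter. RNA was sequenced from 3 mock libraries, labelled as the wt genotype, and 3 p140Cap libraries, labelled as overexpressing p140Cap. p140Cap cells had received p140Cap cDNA in the retroviral vector pBabe-puro, were selected in puromycin, and are a pool of clones grown from single cells. Both groups share the NeuT background, and no source used here names the vector that mock cells carry. The labels name cell lines for each sample and mice in the description of the design, and the samples were read here as cultured TuBo cells. Whether the 3 libraries of a group came from separate cultures is not stated, so p-values measure the spread between these libraries, which may be technical.

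Chemokines are small secreted proteins that bind G protein-coupled receptors and draw leukocytes along a gradient. They are named after the spacing of their first cysteines, as CC, CXC or CX3C chemokines. Those made by tumor cells are known for shaping which neutrophils, monocytes, T cells and dendritic cells enter a tumor. Many are switched on by NF-kappaB after TNF, IL-1 or Toll-like receptor signals, and a CXC subgroup that includes Cxcl10 by interferon.

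The 300 bases around the annotated start of 6 of the genes, from 250 before it to 50 after it, could be read from the RefSeq promoter set of GRCm38.p6, and these were searched on both strands for the letters GGGNNNTTCC, an NF-kappaB type motif, and GAAANNGAAA, the type of an interferon-stimulated response element. The stretches that hold matches are shown with the matches in capitals, together with the same stretch of 2 genes without a match. They run 5′ to 3′ on the strand of the gene. Cxcl1, Cxcl2, Ccl20, Cx3cl1 and Cxcl12 are shown from position -110 to -31 relative to the start, on the plus strand at chr5:90891135-90891214, chr5:90903789-90903868, chr1:83116656-83116735, chr8:94772070-94772149 and chr6:117168425-117168504. Cxcl10 is shown from position -220 to -91, on the minus strand at chr5:92348980-92349109.
Cxcl1: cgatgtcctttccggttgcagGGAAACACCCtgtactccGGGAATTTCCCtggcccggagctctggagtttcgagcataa
Cxcl2: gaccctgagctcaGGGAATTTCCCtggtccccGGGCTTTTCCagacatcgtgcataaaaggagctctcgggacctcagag
Ccl20: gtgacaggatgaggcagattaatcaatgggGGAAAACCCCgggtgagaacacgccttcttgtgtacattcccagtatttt
Cxcl10: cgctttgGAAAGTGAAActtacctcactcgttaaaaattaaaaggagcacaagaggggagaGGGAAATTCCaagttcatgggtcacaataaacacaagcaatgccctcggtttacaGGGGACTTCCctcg
Cx3cl1: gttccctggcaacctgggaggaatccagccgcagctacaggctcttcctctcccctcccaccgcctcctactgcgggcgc
Cxcl12: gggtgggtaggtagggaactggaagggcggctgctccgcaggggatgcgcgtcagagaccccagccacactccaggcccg
The NF-kappaB type letters were found in 4 of the 6 promoters, those of Cxcl1, Cxcl2, Ccl20 and Cxcl10, and in 1825 of all 32851 promoters in the set (5.56%). In Cxcl1 and in Cxcl2, one capital run holds 2 overlapping matches, 1 on each strand. The second motif was found in the promoter of Cxcl10 alone among the 6, and in 1131 of all promoters (3.44%). A match of letters is a description and no evidence of binding. Among the 4 genes with an NF-kappaB type match, Cxcl2 and Cxcl10 had too few reads for a test. Cxcl1 was higher and Ccl20 was lower in p140Cap cells in edgeR's test. Ccl20 had enough reads for the test only through the mock libraries, where it is high, and its call was lost with DESeq2 (adjusted p = 0.0891).

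The libraries differed in depth. The mock libraries held 33058719 to 75506562 reads on genes and the p140Cap libraries 13770385 to 15364850, so a rare transcript could be seen at lower levels in mock cells. A count of 0 allows up to 3 reads, which corresponds to 0.0392 to 0.0901 CPM (the normalized read count, scaled by the TMM-adjusted library size) in the mock libraries and 0.198 to 0.220 CPM in the p140Cap libraries. Srcin1, the gene of p140Cap, was read as a check of the labels and had 509 to 1192 reads in mock and 30546 to 36989 reads in p140Cap libraries. The epithelial identity of the cells was checked on 8 markers, whose summed level was 6194 to 6662 CPM in mock and 6926 to 7129 CPM in p140Cap libraries. Single markers moved in both directions: Krt7 fell by 0.84 on the log2 scale, Cldn4, Epcam and Krt18 rose by 0.49, 0.42 and 0.24, Krt8 was at 0.10 (edgeR adjusted p = 0.101), and Krt19 had 6 reads in mock and 9 in p140Cap libraries. Of 10 leukocyte markers, 7 were at 0 in every library, among them Ptprc, Lyz2 and Cd3e, and Csf1r and Itgb2 led the others with 5 and 3 reads in all. The leukocyte sum did not exceed 0.0754 CPM in any library. The 5 endothelial markers summed to 0.210 to 0.503 CPM in mock and 0.477 to 0.734 CPM in p140Cap libraries, most of it from Pecam1, and the 4 basal markers, led by Trp63 and Krt5, to 0.341 to 0.593 CPM over all libraries. Pecam1 had 18, 17 and 5 reads in mock and 11, 7 and 10 reads in p140Cap libraries, and was higher by 1.25 on the log2 scale in p140Cap cells (edgeR adjusted p = 0.0133), having passed the filter on low counts through the p140Cap group alone. The part of such markers in the values of the chemokine genes was not tested.

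Of the 10 chemokine genes, 2 rose in p140Cap cells (Cxcl1 and Cx3cl1), 2 fell (Cxcl16 and Ccl20) and Cxcl5 was not called. The other 5 had too few reads for the test. Genes were called at an adjusted p under 0.05 in edgeR's quasi-likelihood test, and over all 11800 genes tested 71.1% were called, 35.2% higher and 35.9% lower, so calls in both directions were the rule in this comparison. For 4 of the 5 chemokine genes tested the CPM values of mock and p140Cap libraries were apart without overlap, as they were for 73.4% of all genes tested. Both genes that fell had passed the filter on low counts only through the mock libraries, where they are high. The filter asks for 3 libraries above 0.413 CPM of unadjusted totals, which 3 mock and 0 p140Cap libraries reached for Cxcl16, and 3 mock and 2 p140Cap libraries for Ccl20. The counts over the 5 genes tested are therefore a description. The number called lower was 1 with DESeq2, where the call of Ccl20 was lost (adjusted p = 0.0891). The median log2 fold change of the 5 was -0.01, and that of all tested genes was -0.00154.

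**Figure D1:**
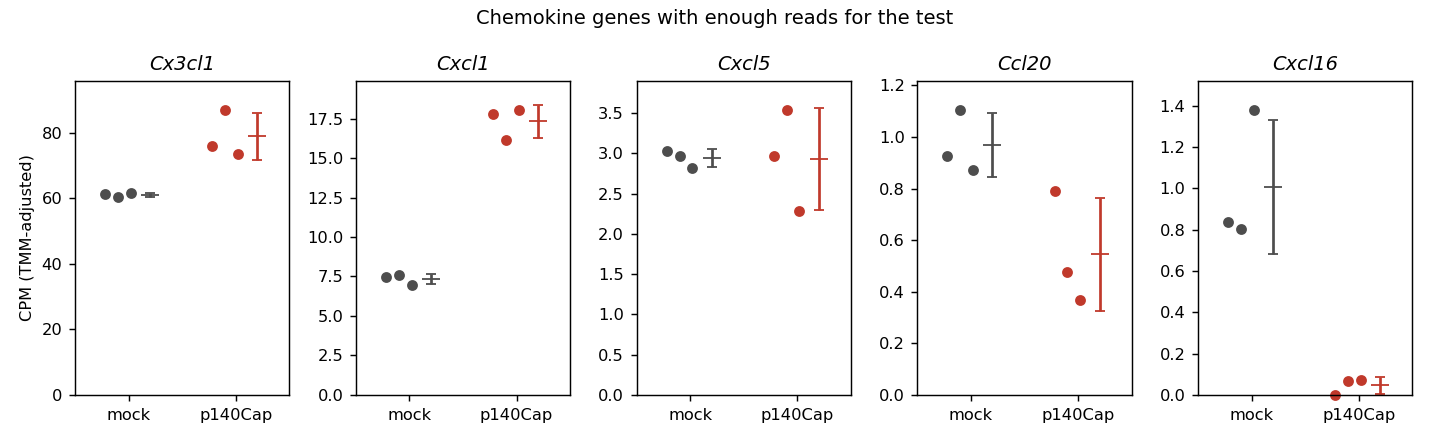
CPM of the 5 tested chemokine genes in each library (points, in the order of the library numbers) with the mean and SD of each group (bar beside the points, n = 3). Each panel has its own CPM axis from 0; the p140Cap libraries lie above the mock libraries for Cx3cl1 and Cxcl1, below them for Ccl20 and Cxcl16, and on both sides of them for Cxcl5.

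**Figure D2:**
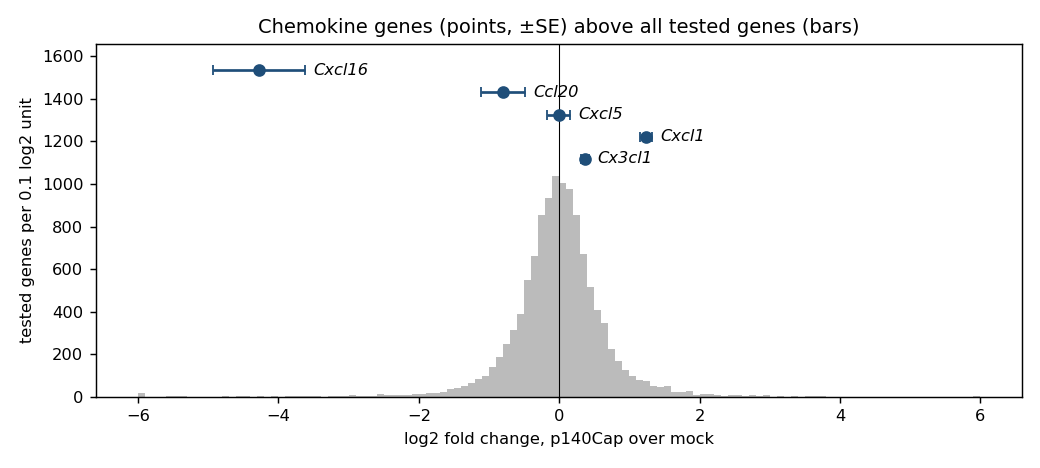
Log2 fold change of p140Cap over mock for the 5 tested chemokine genes (points with SE, set at arbitrary heights above the bars) on the axis of all 11800 tested genes (bars, genes per 0.1 log2 unit). The 18 genes beyond 6 log2 units are drawn in the end bars, and the chemokine genes run from -4.28 for Cxcl16 to 1.24 for Cxcl1.

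The neutrophil-attracting CXC chemokines signal through the receptor Cxcr2, and Cxcl1 and Cxcl5 are among them. Cxcl1 (ENSMUSG00000029380; chr5:90891245-90893121 of GRCm38) had 570, 302 and 232 reads in mock and 270, 237 and 246 reads in p140Cap libraries. Its levels were 7.45, 7.59 and 6.97 CPM in mock and 17.8, 16.1 and 18.1 CPM in p140Cap cells. The lowest p140Cap library was thus above the highest mock library, and the libraries of each group lay close together. Cxcl1 rose from 7.34 ± 0.328 to 17.3 ± 1.04 CPM (SD, n = 3 libraries each), 2.35-fold, with a log2 fold change of 1.24 (SE 0.08, edgeR adjusted p = 1.14e-09). Ordered from the highest log2 fold change down, it stood at position 374 of all genes tested, with 3.17% of genes at or above it. Among the 5 chemokine genes tested, it alone rose by more than 1 log2 unit.

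Cxcl5 (ENSMUSG00000029371; chr5:90759298-90761625), an epithelial ligand of the same receptor that lies in the same gene cluster, had 232, 118 and 94 reads in mock and 45, 52 and 31 reads in p140Cap cells. Its level was 3.03, 2.97 and 2.82 CPM in mock libraries and 2.97, 3.54 and 2.28 CPM in p140Cap libraries, so that the p140Cap values spread to both sides of the mock values. The means were 2.94 ± 0.107 and 2.93 ± 0.633 CPM (SD, n = 3 each), with a log2 fold change of -0.01 (SE 0.16, edgeR adjusted p = 0.972). Over the reads pooled in each group, the level in mock was 1.01 times that in p140Cap cells, with a 95% exact binomial interval of 0.826 to 1.24. This interval, like those given further on, covers counting error only, and a change within it was not detectable at this depth.

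Within a library, Cxcl1 and Cxcl5 can be compared without a library size. The ratio of Cxcl1 reads to Cxcl5 reads was 2.46, 2.56 and 2.47 in the mock libraries and 6.00, 4.56 and 7.94 in the p140Cap libraries. The 3 p140Cap ratios were all higher, by 1.27 on the log2 scale in the mean, with p = 0.1 in a two-sided exact permutation test, the smallest p that 3 against 3 libraries allow. The same test of Cxcl1 over Cx3cl1 reads gave a log2 difference of 0.87 and an exact permutation p of 0.1, and that of Cxcl5 over Cx3cl1 reads gave -0.40 and also p = 0.1 (exact permutation). In these 3 ratios, Benjamini-Hochberg adjustment leaves every p at 0.1.

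Cxcl2, a further ligand of Cxcr2 (ENSMUSG00000058427; chr5:90903899-90905938), was close to absent, with 2, 2 and 1 reads in mock and 0, 1 and 0 reads in p140Cap libraries. The pooled ratio of mock over p140Cap was 1.45 with a 95% exact interval of 0.163 to 68.7, so neither a rise nor a fall of Cxcl2 was detectable at this depth. Cxcl1 and Cxcl2 are neighbours in the cluster and resemble each other in sequence, and no source used here says how the authors' counting treated reads that map to both. Cxcl3, a related ligand named here although the naming rule does not take it, had 2, 2 and 2 reads in mock and 1, 0 and 0 reads in p140Cap libraries. The neutrophil-attracting genes with reads in all 6 libraries were therefore Cxcl1 and Cxcl5. The receptor Cxcr2 itself had 1, 1 and 2 reads in mock and 2, 0 and 1 reads in p140Cap cells.

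Cx3cl1 and Cxcl16 are the chemokines made as membrane proteins with a mucin-like stalk. Each can hold cells that carry its receptor, and each is released when Adam10 or Adam17 cuts the stalk. Cx3cl1 (ENSMUSG00000031778; chr8:94772180-94782427) had 4685, 2398 and 2048 reads in mock and 1153, 1278 and 1001 reads in p140Cap libraries. Its levels were 61.2, 60.3 and 61.5 CPM in mock and 76.0, 87.1 and 73.5 CPM in p140Cap cells. All p140Cap libraries were above all mock libraries, and the p140Cap libraries also differed more among themselves. Cx3cl1 rose from 61.0 ± 0.632 to 78.9 ± 7.20 CPM (SD, n = 3 each), 1.29-fold, with a log2 fold change of 0.37 (SE 0.06, edgeR adjusted p = 2.95e-05). A log2 fold change at or above this value was found in 21.6% of all genes tested. The annotated noncoding RNA 1700121C10Rik overlaps Cx3cl1 on the other strand, and no source used here says whether counting took the strand into account.

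Cxcl16 (ENSMUSG00000018920; chr11:70454389-70459984) moved the other way and from a low level. Mock libraries held 64, 32 and 46 reads of it, and p140Cap libraries 0, 1 and 1. At the pooled mock level, the p140Cap libraries would have held 14.4, 13.9 and 12.9 reads. The levels were 0.836, 0.805 and 1.38 CPM in mock and 0, 0.0681 and 0.0734 CPM in p140Cap cells, so every p140Cap library lay under its own limit for a count of 0. Pooled over each group, 142 reads against 2 reads gave a ratio of mock over p140Cap of 20.6, with a 95% exact interval of 5.61 to 172. The fitted log2 fold change was -4.28 (SE 0.65, edgeR adjusted p = 1.91e-05) among genes that passed the filter, which Cxcl16 did through the mock group alone. In a fit with no filter on low counts, where every gene with a read was tested, it was -4.31 (edgeR adjusted p = 1.37e-10). Only 2 reads set the size of this decrease. When all libraries were thinned to the smallest total, 7, 11 and 21 reads stood against 0, 0 and 1, and the gene no longer reached the filter for the test. In bulk RNA, fewer cells expressing Cxcl16 and less Cxcl16 RNA per cell cannot be told apart. Med11 and Zmynd15 overlap Cxcl16 on the other strand, and Med11 fell by 0.56 on the log2 scale (adjusted p = 4.39e-05 from edgeR). The part of overlapping reads in the values of Cxcl16 was not tested.

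Ccl20 (ENSMUSG00000026166; chr1:83116766-83119167) attracts dendritic cells and T cells through Ccr6. It had 71, 44 and 29 reads in mock and 12, 7 and 5 reads in p140Cap libraries, where 14.6, 14.1 and 13.1 reads would stand at the pooled mock level. In CPM, Ccl20 was at 0.928, 1.11 and 0.871 in mock and at 0.791, 0.477 and 0.367 in p140Cap cells, with the highest p140Cap library just under the lowest mock library. The means were 0.968 ± 0.123 and 0.545 ± 0.220 CPM (SD, n = 3 each), with a log2 fold change of -0.80 (SE 0.31, edgeR adjusted p = 0.0296), and -0.83 (edgeR adjusted p = 0.0233) with no filter on low counts. Pooled over each group, the ratio of mock over p140Cap for Ccl20 was 1.74, with a 95% exact interval of 1.13 to 2.81. This decrease was lost with DESeq2 (adjusted p = 0.0891) and on libraries thinned to the smallest total (adjusted p = 0.227). It was also lost without mock library 2, p140Cap library 2 or p140Cap library 3, with adjusted p of 0.0707, 0.102 and 0.138 from edgeR.

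**Figure D3:**
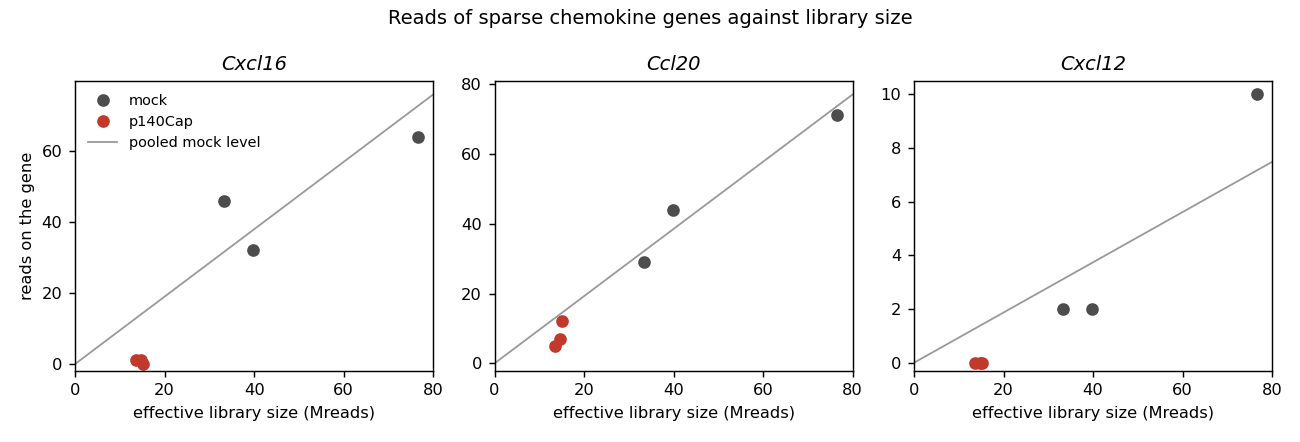
Reads on Cxcl16, Ccl20 and Cxcl12 (vertical axis, whole reads) against the effective, TMM-adjusted library size in Mreads, for 3 mock and 3 p140Cap libraries. The line is the pooled mock level; the p140Cap libraries hold 0 to 1 reads of Cxcl16 where the line lies at 12.9 to 14.4, 5 to 12 reads of Ccl20 where it lies at 13.1 to 14.6, and 0 reads of Cxcl12 where it lies at 1.27 to 1.42.

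Cxcl12 (ENSMUSG00000061353; chr6:117168535-117181368), the ligand of Cxcr4 and a chemokine made mostly by stromal cells, had 10, 2 and 2 reads in mock and no reads in p140Cap libraries. With up to 3 reads allowed over the p140Cap group, the pooled mock level was 1.36 times that limit. This value takes the 14 mock reads as exact, without their counting error, so it is no lower bound on a difference. It also rests on mock library 1. Without that library, 4 reads gave 0.0547 CPM in mock, under the p140Cap limit of 0.0690 CPM, and no difference could be stated. At the pooled mock level the p140Cap libraries would have held between 1.27 and 1.42 reads each, so the zeros carry little weight. Of the 14 mock reads, 10 came from mock library 1, the deepest, where 7.16 would stand at the pooled mock level. Fibroblast markers were read beside it, since such cells are a known source. Of 8 markers, 5 were at 0 in every library, among them Dcn, Lum and Col3a1. Their summed level was 9.97 to 10.5 CPM in mock and 11.3 to 14.1 CPM in p140Cap libraries, nearly all of it from Pdgfra and Col1a1. Col1a1 rose by 0.80 on the log2 scale (adjusted p = 0.000244 from edgeR), and Pdgfra was at 0.09 (adjusted p = 0.499 from edgeR).

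Cxcl10 (ENSMUSG00000034855; chr5:92346638-92348889), the interferon-induced ligand of Cxcr3 on T cells and NK cells, had 3, 2 and 0 reads in mock and 0, 0 and 1 reads in p140Cap libraries. Its pooled ratio was 1.45 with a 95% exact interval of 0.163 to 68.7, so no difference was detectable. The monocyte-attracting genes Ccl2 (ENSMUSG00000035385; chr11:82035577-82037452) and Ccl7 (ENSMUSG00000035373; chr11:82045712-82047525), which share the receptor Ccr2, were at the limit of detection. Ccl2 had 1 read, in mock library 1, and Ccl7 had none in any of the 6 libraries. Taken over a whole group, a count of 0 allows a level of up to 0.0201 CPM in mock and 0.0690 CPM in p140Cap cells.

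Compared per kilobase of exon, which allows levels of different genes to be set side by side, the 5 tested genes kept one order in mock cells. Cx3cl1 was highest at 15.4 CPM per kb, followed by Cxcl1 at 3.90, Cxcl5 at 1.55, Ccl20 at 0.681 and Cxcl16 at 0.197 CPM per kb. No neighbours in this order overlapped between libraries. The length was the union of all annotated exons of a gene, which can differ from the length of the transcript expressed. It was 1421 bases for Ccl20 and 5123 bases for Cxcl16. Their mock means in CPM were 0.968 and 1.01, so the order of Ccl20 and Cxcl16 in mock cells rests on these lengths. In p140Cap cells the means followed the same order, at 19.9, 9.22, 1.54, 0.384 and 0.00921 CPM per kb. The rare genes Cxcl2, Cxcl10, Cxcl12, Ccl2 and Ccl7 had mean levels of 0 to 0.0172 CPM per kb in mock cells, and neighbours in this part of the order overlapped between libraries. Summed over the 10 genes, the level was 72.9 to 73.7 CPM in mock and 94.4 to 107 CPM in p140Cap libraries. Cx3cl1 gave 82.7 to 83.5% of these reads in mock and 77.9 to 81.1% in p140Cap libraries, and Cxcl1 gave 9.46 to 10.4% and 15.0 to 19.1%. The share of Cxcl5 was 3.83 to 4.11% in mock and 2.41 to 3.30% in p140Cap libraries.

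Among 27 other chemokine ligands in the table, 15 had no read in any library, 9 had too few for the test and 3 were tested. Ccl9, a CC chemokine that attracts myeloid cells through Ccr1, changed most of the 3, with 172, 84 and 82 reads in mock and 15, 8 and 7 reads in p140Cap libraries. It fell from 2.27 ± 0.177 to 0.683 ± 0.266 CPM (SD, n = 3 each), with a log2 fold change of -1.71 (SE 0.24, edgeR adjusted p = 9.45e-06). Ccl25, a ligand of Ccr9, was at 10.9 ± 0.612 and 12.7 ± 0.844 CPM with a log2 fold change of 0.21 (SE 0.08, edgeR adjusted p = 0.0330), a call that was lost with DESeq2 (adjusted p = 0.0789). Without a filter on low counts the adjusted p of Ccl25 was 0.0776, and with 1 library left out it ranged up to 0.171. Ccl28, an epithelial chemokine named after its values were seen, was at 0.55 (adjusted p = 0.0764 from edgeR), and was called without mock library 2 (0.75, adjusted p = 0.0210) and without p140Cap library 2 (0.72, adjusted p = 0.0406).

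Of 23 chemokine receptors, 6 had no reads, 12 had too few and 5 were tested, with 2 lower, none higher and 3 not called, a share called of 40.0% against 71.1% of all tested genes. Of the 5 tested, none was higher at an unadjusted p under 0.05 or with DESeq2. On libraries thinned to the smallest total 4 receptors were tested, of which 1 was higher and 2 lower. Cxcr4, the receptor of Cxcl12, fell from 22.7 ± 0.394 to 16.3 ± 0.711 CPM (SD, n = 3 each), with a log2 fold change of -0.48 (SE 0.07, edgeR adjusted p = 8.00e-06). Ccrl2, which binds chemerin without signalling, fell from 26.7 ± 0.760 to 22.4 ± 1.17 CPM, with a log2 fold change of -0.26 (SE 0.07, edgeR adjusted p = 0.00203). The other receptors of the measured ligands were named for that reason and lie outside the naming rule. Cx3cr1, the receptor of Cx3cl1, had no reads. Cxcr6, the receptor of Cxcl16, had 30, 11 and 3 reads in mock and 12, 6 and 12 reads in p140Cap libraries, or 0.253 ± 0.152 and 0.694 ± 0.251 CPM (SD, n = 3 each). Cxcr1, chosen after its values were seen as a receptor related to Cxcr2, had 23, 14 and 8 reads in mock and 18, 6 and 16 reads in p140Cap libraries, or 0.298 ± 0.0559 and 0.923 ± 0.446 CPM. For both of these receptors all p140Cap values in CPM exceeded all mock values, where the groups did not overlap for 73.4% of all tested genes. Only 2 libraries passed the filter on low counts for each, and neither gene was tested. Ccr6, the receptor of Ccl20, had 1, 0 and 1 reads in mock and none in p140Cap libraries. TuBo cells thus held many reads of Cx3cl1 and Cxcl1 with few or none of their receptors, while Cxcr4 was the reverse case.

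Proteins that cut or hold chemokines were tested for 7 of 9 genes, of which 3 were higher and 2 lower, a share called of 71.4% that is close to the 71.1% of all tested genes. Adam10, a sheddase of Cx3cl1 and Cxcl16, rose by 0.19 on the log2 scale (adjusted p = 0.00130 from edgeR), from 340 ± 4.90 to 387 ± 5.34 CPM. Adam17, the other sheddase, was singled out after its values were seen and was at 155 ± 2.84 and 155 ± 2.89 CPM, with a log2 fold change of 0.00 (SE 0.05, edgeR adjusted p = 0.990). Mmp14, a membrane metalloproteinase that can cut Cxcl12, rose by 0.56, and Sdc4, a heparan sulfate proteoglycan of the cell surface, rose by 0.32 on the log2 scale. Hmgb1, which binds Cxcl12, fell by 0.40 (adjusted p = 2.72e-06 from edgeR).

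Of 29 genes that feed or restrain NF-kappaB, 25 were tested, 13 were higher and 6 lower, with a median log2 fold change of 0.17. The share called, 76.0%, was near the 71.1% of all tested genes. Nfkbia, the inhibitor IkappaB-alpha and itself an NF-kappaB target, rose by 0.85 (SE 0.06, edgeR adjusted p = 1.98e-09), and the related inhibitor Nfkbie by 0.59. Tlr2, a receptor for bacterial lipoproteins, rose by 0.60. Chuk, the kinase IKK-alpha, fell by 0.72 (SE 0.06, edgeR adjusted p = 9.34e-09). The most abundant genes of this list were Tnfrsf1a, a receptor of TNF, with a rise of 0.35, and Nfkb1, which fell by 0.23. All of these values are log2 fold changes.

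Among 13 genes of the interferon receptors and their signal chain, 11 were higher and none was lower in edgeR's test, with 2 not called, where 35.2% of all tested genes were higher and 35.9% lower. The count of lower genes was also 0 at an unadjusted p under 0.05 and with DESeq2, and 11 were higher under each of the other scalings and filters tried. Irf7 rose by 1.32 on the log2 scale (SE 0.18, edgeR adjusted p = 6.05e-06), from 1.04 ± 0.0526 to 2.58 ± 0.209 CPM. Irf9 rose by 0.57, Tyk2 by 0.56 and Ifnar2 by 0.33, and the most abundant genes, Jak2 and Jak1, by 0.31 and 0.27. Cxcl10, an interferon target, had 5 reads in mock and 1 in p140Cap libraries, too few to show a rise or a fall. In a list of 7 genes that act on the stability of chemokine mRNA, 4 were higher and 3 lower, where 71.1% of all tested genes were called, and on libraries thinned to the smallest total 2 were lower. Zc3h12a, an endonuclease known as Regnase-1, rose by 0.64, and the AU-rich element binding proteins Zfp36l2 and Zfp36l1, which promote decay, rose by 0.39 and 0.32. Elavl1 (HuR), which stabilizes mRNA, fell by 0.47 and Hnrnpd (AUF1) by 0.41 on the log2 scale. Khsrp, a decay-promoting protein that completes the list of those that fell, was singled out after its values were seen and fell by 0.15 (edgeR adjusted p = 0.0121).

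**Figure D4:**
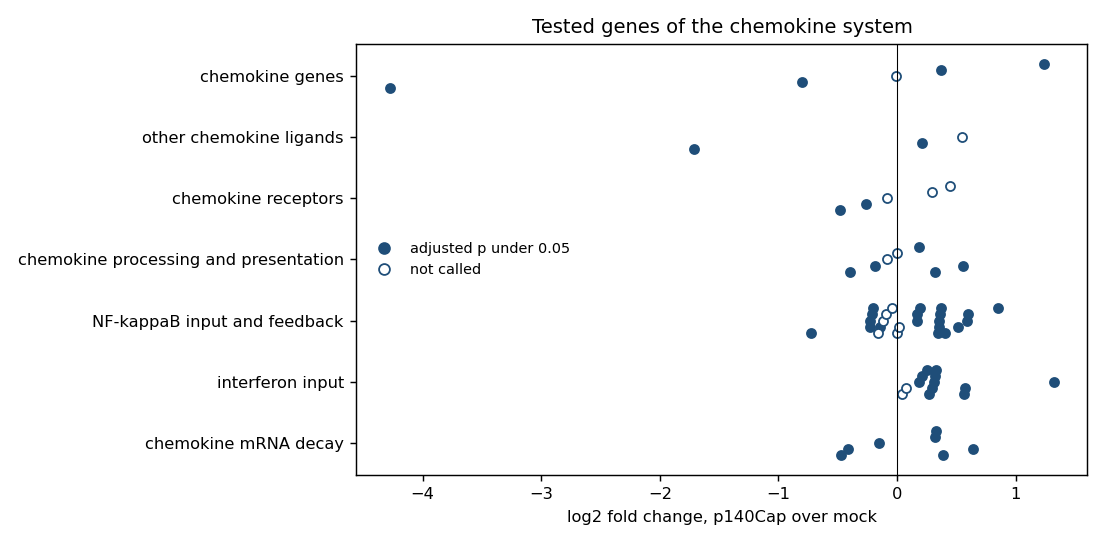
Log2 fold change of p140Cap over mock for each tested gene of the chemokine system, 1 row per list (points are spread vertically within a row for legibility). Filled points passed an adjusted p under 0.05 and open points did not; the 13 interferon genes lie at or above 0.04, and the chemokine genes and their receptors lie on both sides of 0.

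Genes around the chemokine genes were read to see whether a whole locus moved, with 71.1% of all tested genes called as the background for the counts at each locus. Of the tested genes that start within 500 kb of a chemokine gene and are not chemokines, 5 lay at the Cxcl1, Cxcl2 and Cxcl5 cluster, of which 3 were higher and 1 lower, with log2 fold changes from -0.45 to 0.84. The highest, Rassf6, starts at -156.2 kb from the nearest of the chemokine genes and was below the 1.24 of Cxcl1. At Cxcl16, 28 neighbours were tested, 12 were higher and 9 lower, and they ran from -0.56 to 1.84 (Dlg4), against -4.28 for Cxcl16 itself. At Cx3cl1, 15 neighbours were tested, 4 were higher and 4 lower, and the largest change was a fall of 2.30 in Adgrg3. Of 10 tested genes around Cxcl10, 4 were higher and 3 lower, with Stbd1 at 1.48. The 2 tested neighbours of Ccl20 were not called, at -0.06 and 0.07, and none was tested around Cxcl12 or around Ccl2 and Ccl7. The value of Cxcl1 lay outside the range of its tested neighbours, and those of Cxcl5 and Cx3cl1 lay within it. Cxcl16 and Ccl20 were also outside, but both entered the test through the mock group alone, the value of Cxcl16 rests on 2 p140Cap reads, and the call of Ccl20 was lost in several settings, so their place among the neighbours is a description.

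**Figure D5:**
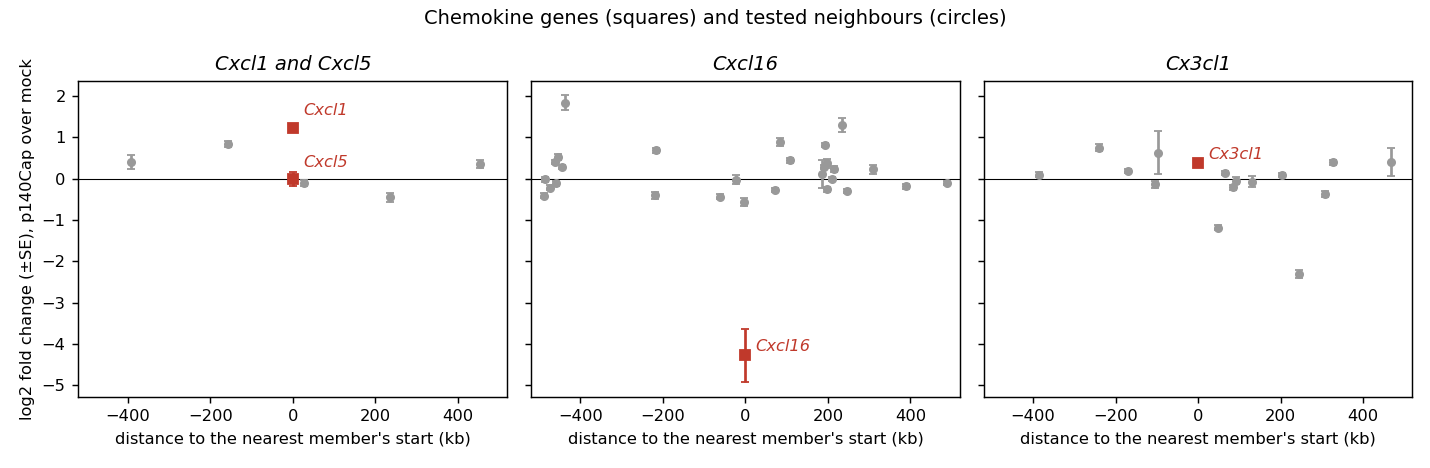
Log2 fold change (±SE) of p140Cap over mock for tested neighbours (circles) by the distance of their start from the start of the nearest chemokine gene in kb, with the chemokine genes (squares) at 0. Cxcl1 lies above and Cxcl16, whose value rests on 2 p140Cap reads, below all of their tested neighbours, while Cxcl5 and Cx3cl1 lie within the range of theirs.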

How the data were processed

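RNA from 3 mock and 3 p140Cap libraries was selected for poly(A) per the labels and made into stranded libraries per the paper. The authors deposited counts, whole-number reads on 21960 genes, not normalized and with replicates kept apart. The submitters' processing notes name STAR 2.5, RSEM 0.1.1 and the build mm10 (GRCm38), without their roles, while the paper names GRCm39 and docker4seq. No source used here says whether the counts are rounded estimates or whether counting took account of strand.

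Counts were analysed in R 4.3.3 with TMM factors, filterByExpr by group and the quasi-likelihood test of edgeR 4.0.16 (limma 3.58.1), with condition as the only term, Benjamini-Hochberg adjustment over the 11800 genes tested and a threshold of 0.05. The SE of a log2 fold change is its size over the root of the F statistic. Pooled reads per effective library size were compared by ratios with 95% exact binomial (Clopper-Pearson) intervals, and a count of 0 was set to 3 reads as its upper limit. The scripts were tested on simulated data. The common coefficient of variation between libraries of a group was 4.57%. All deposited columns matched a sample by name.

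The 10 genes and the gene lists were chosen with earlier results of these data known. Named are all 10 genes and, of every other list, at most 4 called genes, taken by size of change, and up to 2 tested genes with the highest mean CPM (or with the most reads where fewer were tested), Srcin1, and the called neighbour with the largest change at each locus. Positions are those of RefSeq on GRCm38.p6, by symbol (93.6% of the genes matched). Exon lengths are those of GENCODE vM39 on GRCm39, by Ensembl identifier (98.6% matched). Promoters were those of RefSeq, with 6 of the 10 genes matched and Cxcl5, Cxcl16, Ccl2 and Ccl7 not. Planned protein features were not run. Alternatives were RLE factors, DESeq2 1.42.0, no filter, at least 10 reads in every library, thinning to the smallest total, a replicate block and leaving out each library.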

Additional observations from a re-analysis of the deposited data

How the results depend on the processing

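Cxcl1 and Cx3cl1 kept their direction and their call under every alternative run, and with each library left out in turn ranged from 1.20 to 1.28 and from 0.29 to 0.41 on the log2 scale. Cxcl16 was not tested with at least 10 reads in every library or on thinned libraries. It was called without a filter, and elsewhere it entered the test through the mock group, so its call there is no sign of stability; with a library left out it ranged from -4.72 to -3.71. The number of chemokine genes called higher was 2 throughout. The number called lower was 2, but 1 with DESeq2, 0 with at least 10 reads in every library, where Cxcl16 and Ccl20 were not tested, 0 on thinned libraries, and between 1 and 2 with a library left out. Without a filter on low counts it was 3, since Cxcl12 was then tested (adjusted p = 0.0496 from edgeR). Ccl20 was at -0.82 with DESeq2 and -0.54 on thinned libraries, both no longer called, and between -1.18 and -0.60 with a library left out. Cxcl5, not called in any, had its sign reversed without mock library 1 and without p140Cap library 3, within a range of -0.17 to 0.13. The median of the chemokine genes tested moved to -0.51 without a filter and to 0.36 with at least 10 reads in every library, as the genes tested changed, and ranged from -0.17 to 0.13 with a library left out. Over all genes, 7851 to 8253 were called with a library left out.

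Replicate numbers are shared between the groups, but same-numbered libraries did not deviate together (correlations of 0.005, -0.315 and -0.06), and not every library correlated best with its own number, so the numbers were not taken as pairs. With the replicate block, 8034 genes were called, and 2 chemokine genes were higher and 2 lower. The log2 fold changes were then 1.24 for Cxcl1, 0.37 for Cx3cl1, -0.01 for Cxcl5, -4.33 for Cxcl16 and -0.79 for Ccl20. Depth limits the 5 rare genes and Cxcl16 in p140Cap cells, where at most 1 read of any of these was found in a library.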
